A study of Mus musculus with 29 samples.

Results

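Transcriptomes of mouse embryonic stem (ES) cells with a labelled knockout of Trim66 and of ES cells with a knockdown of Dax1 were compared to see which genes moved the same way in both and which moved opposite ways. The count tables of the 2 experiments were joined by row name, which gave 12 of the 29 samples of the series, in 6 groups of 2 libraries. Of the 24394 genes in the tables, 13572 were tested in both experiments. Genes on a list of the 2-cell programme were set apart from all others throughout, and the others can hold genes of that programme that are not on the list.

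The first experiment held ES cells with the wild-type Trim66 gene (WT) and the knockout lines Trim66-KO-1 and Trim66-KO-2 (KO1 and KO2 here). The second held ES cells with a control for the Dax1 hairpins, labelled CTR-shDax1 (CTR here), and cells carrying the hairpin Dax1-sh1 or Dax1-sh2 (sh1 and sh2 here). All were ES cells of the 129/Ola strain grown untreated in serum medium on gelatin. No control sample was shared between the experiments. A line or a hairpin was 1 label with 2 libraries, and no label says that the libraries came from separate cultures, so each p-value measures only the spread between these libraries.

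TRIM66 is a chromatin-associated member of the tripartite motif family, with a PHD finger and a bromodomain that read histone tails. DAX1, the product of Nr0b1, is an orphan nuclear receptor that lacks the usual DNA-binding domain, binds other nuclear receptors and mostly represses transcription. A small share of ES cells in serum culture passes through a 2-cell-like state, in which the transcription factor DUX, the Zscan4 cluster and MERVL retroelements are active as in the mouse embryo at the 2-cell stage. The title of the study names an axis of TRIM66, DAX1 and Dux that acts on this state.

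A set of 4 copies of the Zscan4 cluster on chromosome 7 were among the genes that rose in both experiments and are shown because each promoter holds the letters AAGGTCA, a motif that nuclear receptors such as ESRRB bind. The promoters run from 250 bases before to 50 bases after the annotated start (RefSeq, GRCm38.p6, the assembly also called mm10). Capitals mark the motif, which on the printed strand reads TGACCTT.
Zscan4b, chr7:10905001-10905300, minus strand: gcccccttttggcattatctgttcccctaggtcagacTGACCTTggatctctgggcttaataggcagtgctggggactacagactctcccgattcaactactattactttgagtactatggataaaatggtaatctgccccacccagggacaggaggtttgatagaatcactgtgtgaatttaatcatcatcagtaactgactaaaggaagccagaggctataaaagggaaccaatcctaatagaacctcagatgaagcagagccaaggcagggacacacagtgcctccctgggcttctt
Zscan4c, chr7:11005495-11005794, plus strand: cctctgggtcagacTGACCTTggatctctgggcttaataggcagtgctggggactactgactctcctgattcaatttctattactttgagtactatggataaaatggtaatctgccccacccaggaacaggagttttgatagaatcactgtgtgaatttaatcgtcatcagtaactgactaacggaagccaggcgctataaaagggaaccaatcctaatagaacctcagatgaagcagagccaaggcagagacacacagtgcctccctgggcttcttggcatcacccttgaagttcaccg
Zscan4d, chr7:11166099-11166398, minus strand: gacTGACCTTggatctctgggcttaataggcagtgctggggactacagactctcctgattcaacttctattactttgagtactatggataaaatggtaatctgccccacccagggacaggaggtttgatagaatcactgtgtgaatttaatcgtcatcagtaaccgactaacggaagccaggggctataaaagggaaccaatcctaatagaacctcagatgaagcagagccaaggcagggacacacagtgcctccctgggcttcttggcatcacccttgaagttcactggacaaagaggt
Zscan4f, chr7:11397665-11397964, plus strand: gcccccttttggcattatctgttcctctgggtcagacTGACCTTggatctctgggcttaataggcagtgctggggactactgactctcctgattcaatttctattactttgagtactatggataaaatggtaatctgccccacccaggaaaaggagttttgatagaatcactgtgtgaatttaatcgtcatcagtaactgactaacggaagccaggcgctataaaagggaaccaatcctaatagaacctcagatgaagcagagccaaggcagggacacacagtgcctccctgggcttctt

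The motif began 213 bases before the start in Zscan4b and Zscan4f, 236 bases before it in Zscan4c and 247 bases before it in Zscan4d. The promoters of Zscan4b and Zscan4f were identical at 287 of 300 positions (95.7%). Those of Zscan4c and Zscan4d hold the same stretch around the motif at another distance from the start, so the 4 promoters are copies and not independent cases. Searched on both strands, AAGGTCA was present in 1454 of 27025 promoters (5.38%) and in 419 of the 10672 promoters of genes tested in both experiments (3.93%). It was present in 17 of 447 promoters (3.8%) of the genes outside the 2-cell list that were higher in both experiments and in 21 of 566 (3.71%) of those lower in both. Among genes called opposite ways, 8 of 160 promoters (5.0%) of those higher in knockout and 4 of 98 (4.08%) of those higher in knockdown held it. Of the 17 promoters of 2-cell genes that were higher in both, 4 held it (23.5%), and these are the 4 Zscan4 copies printed here.

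Values are given in CPM, which are counts scaled to a common library size, here within each experiment with trimmed mean of M-values (TMM) factors. Library totals ran from 13065640 to 16936794 counts. The knockout effect is the mean log2 fold change of KO1 and KO2 against WT, and the knockdown effect the mean of sh1 and sh2 against CTR, each given with its standard error (SE). Calls rest on edgeR's quasi-likelihood test, with Benjamini-Hochberg adjustment over everything tested in the experiment and a threshold of 0.05. The difference of the effects (knockout minus knockdown) was tested in the same way in a fit of the 12 libraries.

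The targeted genes were read first. Trim66 (chromosome 7, 109449001 to 109516759) was at 0.788 and 1.01 CPM in WT, 2.65 and 2.60 in KO1 and 2.51 and 2.80 in KO2. Its counts were therefore higher in the libraries labelled knockout, by 1.55 ± 0.29 (log2, SE, adjusted p = 0.00484), a call that was lost without WT replicate 1 (adjusted p = 0.0681). The labels do not give the deleted part, so a count over the whole gene does not check a deletion, and every knockout effect below is that of the libraries labelled knockout. Nr0b1 (chromosome X, 86191775 to 86195947), the gene of DAX1, was at 150 and 158 CPM in CTR, 62.6 and 58.2 in sh1 and 77.5 and 77.7 in sh2, a fall of −1.17 ± 0.05 (adjusted p = 6.56e-17). In the knockout experiment Nr0b1 was at 155 and 157 CPM in WT and between 152 and 177 in the 4 knockout libraries, and did not pass the test (0.09 ± 0.08, adjusted p = 0.466). In the knockdown experiment Trim66 was at or below 1.16 CPM in every library. Its called rise there (1.82 ± 0.64, adjusted p = 0.0281) was lost in 4 of 6 fits that left out a library, namely either CTR replicate, sh1 replicate 2 or sh2 replicate 2 (adjusted p up to 0.251).

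Some libraries and chromosomes stood apart in ways that touch the counts below. Among genes that averaged 8 CPM or more, the median effect on chromosome 1 was −0.62 in KO1, −0.49 in KO2, −0.34 in sh1 and −0.18 in sh2, and in KO2 the bins from 160 to 180 Mb and from 180 to 200 Mb were at −0.06 and −0.05. Chromosome 19 was at −0.28 in the knockdown and chromosome 15 at 0.27 in KO1, while the medians of the other 17 chromosomes lay between −0.06 and 0.02 in the knockout and between −0.04 and 0.004 in the knockdown. Chromosome Y genes summed to 5.35 and 4.35 CPM in CTR, to between 52.97 and 156 CPM in the 4 hairpin libraries and to between 102 and 188 CPM in the knockout experiment. The replicates of KO2 differed most from each other (a chi-square of 20.1 per degree of freedom, against 2.27 to 7.16 in the other groups). Of the 7 ES cell markers none was at 0 in any group, and their summed level was lowest in sh1, at 4431 to 4520 CPM, against 5959 to 6015 in CTR, 6056 to 6293 in sh2 and 5556 to 7200 in the knockout experiment. Of the 9 fibroblast markers between 0 and 4 were at 0 in a group, and their summed level was highest in sh1, at 46.3 to 53.3 CPM, against 16.7 to 39.2 elsewhere. The 3 erythroid and 4 leukocyte markers summed to under 1 CPM in every library.

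**Figure D1:**
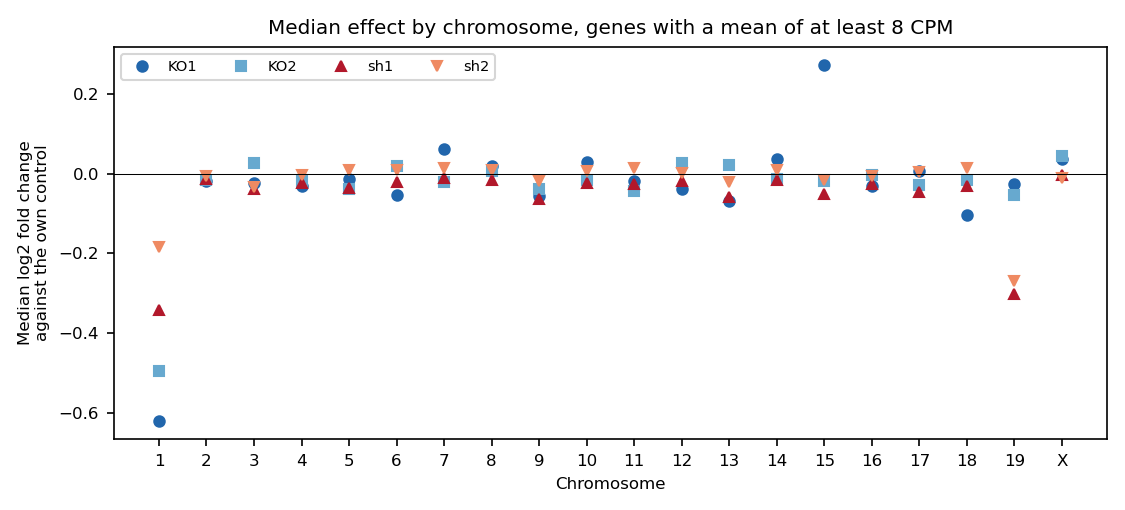
Median log2 fold change against the own control for the genes of each chromosome that averaged 8 CPM or more, by knockout line and hairpin. Chromosome 1 sat below 0 in all 4 comparisons (−0.62 in KO1, −0.49 in KO2, −0.34 in sh1, −0.18 in sh2), chromosome 19 was low with both hairpins and chromosome 15 was high in KO1.

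The core factors of pluripotency Pou5f1, Sox2, Nanog and Zfp42, which mark undifferentiated ES cells, did not pass in the mean of the knockout lines, with effects between −0.21 and 0.00 (log2). The lines were not alike, since Nanog was at 744 and 703 CPM in WT, 495 and 507 in KO1 and 848 and 719 in KO2. It fell in KO1 (−0.53 ± 0.10, adjusted p = 0.00385) and did not pass in KO2 (0.11 ± 0.10, adjusted p = 0.517). Sall4, another factor of the ES cell network, was at 240.4 and 232 CPM in WT, 171 and 177 in KO1 and 232 and 268 in KO2. In the knockdown Sox2 (−0.33 ± 0.04), Nanog (−0.24 ± 0.04) and Zfp42 (−0.14 ± 0.04) fell and Pou5f1 did not pass (0.00 ± 0.03). That mean of Pou5f1 averages opposite hairpins, with 1890 and 1901 CPM in CTR, 1795 and 1730 in sh1 and 2097 and 1989 in sh2. Against CTR, Nanog and Zfp42 were higher with sh2 alone (0.15 and 0.18), so only sh1 was below CTR for this pair of genes. Sox2 did not pass with sh2 alone (−0.09, adjusted p = 0.127). The call of Zfp42 was lost without CTR replicate 1 (adjusted p = 0.0633).

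More genes moved the same way in both experiments than opposite ways. The knockout effect was called higher for 1870 of 14189 genes (13.2%) and lower for 1584 (11.2%), and the knockdown effect higher for 2349 of 14017 (16.8%) and lower for 2609 (18.6%). Among the 13572 genes tested in both, 628 were higher in both (4.63%) and 719 lower in both (5.3%), 208 were higher in knockout and lower in knockdown (1.53%), and 131 were lower in knockout and higher in knockdown (0.965%). Same-way genes thus made up 1347 (9.92% of genes tested) and opposite-way genes 339 (2.5%), so that 79.9% of the 1686 genes called in both moved the same way. Of the genes higher in knockout 35.2% were also higher in knockdown, and of those higher in knockdown 28.5% were also higher in knockout. The matching shares for lower genes were 46.1% and 27.7%.

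These counts depended on single libraries more than their proportions did. Genes higher in both numbered 281 without WT replicate 1, 277 without WT replicate 2 and 398 without KO1 replicate 2, and genes lower in both 329, 421 and 476 without the same libraries and 1086 without KO2 replicate 2. Over all 12 such fits the same-way share stayed between 77.4% and 83.0%. DESeq2 gave 947 same-way and 207 opposite-way genes (82.1% the same way). With chromosomes 1, 15, 19 and Y and the 2-cell list left out, a choice made after seeing the data, 541 genes were higher in both, 394 lower in both, 151 higher in knockout and lower in knockdown and 108 the reverse (78.3% the same way).

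**Figure D2:**
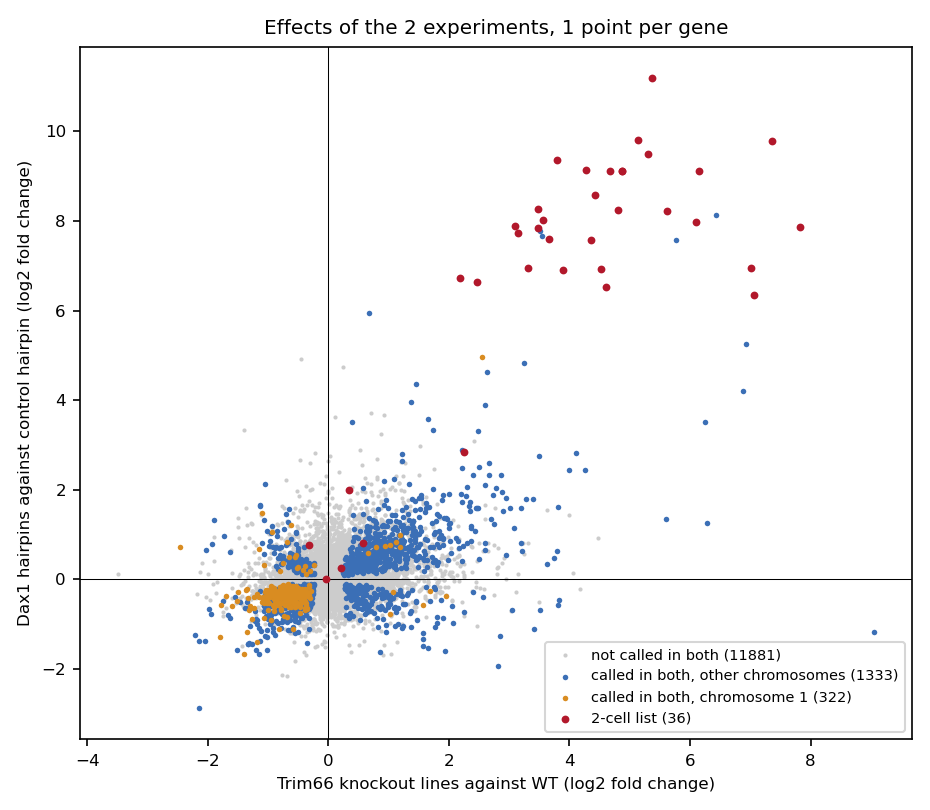
Knockout effect (horizontal, log2 fold change) against knockdown effect (vertical, log2 fold change) for 13572 genes, 1 point each, with the 36 tested 2-cell genes, the 322 chromosome 1 genes called in both and the other genes called in both set off by colour. The 2-cell genes sit at the upper right and higher on the knockdown axis, and most chromosome 1 genes sit at the lower left.

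The share was not equal among pairs of a line and a hairpin. Against their controls 2587 genes were higher (18.2%) and 2034 lower (14.3%) in KO1, 934 (6.58%) and 792 (5.58%) in KO2, 3193 (22.8%) and 3066 (21.9%) in sh1, and 1674 (11.9%) and 1850 (13.2%) in sh2. Outside the 2-cell list 79.3% of the genes called in both KO1 and sh1 moved the same way, as did 81.7% for KO2 and sh1 and 77.7% for KO2 and sh2, but 56.9% for KO1 and sh2 (832 the same way and 630 opposite ways). Without chromosomes 1, 15, 19 and Y that last share was 52.4%. Pairs with a common line or hairpin share its libraries and its controls, so the 4 shares are given side by side only. Across the 13536 genes outside the list the mean effects correlated at 0.38 (Pearson) and 0.31 (Spearman), a description over genes, which are not independent replicates. Outside the 2-cell list 119 genes were called higher and 180 lower in each line and with each hairpin, and 123 of the 180 lie on chromosome 1.

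Genes of the 2-cell stage rose in both experiments, and by more in the knockdown. Of the 69 listed genes found in the tables, 36 were tested in both, and 31 of these were higher in both, against 4.63% of all genes. None was lower in either. In DESeq2 29 were higher in both. The other 33 listed genes were not tested in both experiments: 9 had no counts in any library, 7 had 1 to 9 counts in all, and 17 had 10 or more. The list is not independent evidence of a direction, because it was written with earlier results of these data known, and a gene that passes the count filter through treated libraries alone had to differ. Fewer than 10 control counts were found for 25 of the 36 in WT and for 30 in CTR. In bulk samples more cells in the 2-cell-like state and more RNA per such cell cannot be told apart.

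The listed genes without Eif1a, a translation factor gene active in every cell, summed to 13.1 and 12.1 CPM in WT, 71.1 and 68.0 in KO1 and 225 and 208 in KO2. In the knockdown experiment they summed to 10.3 and 8.40 CPM in CTR, 996 and 952 in sh1 and 396 and 392 in sh2. Each treated group lay above its control without overlap, the levels in sh1 were highest, and KO2 lay above KO1. The sums of chromosome Y genes and of fibroblast markers were also highest in sh1 among the knockdown libraries. The part of these genes in this order was not tested. Zscan4a to Zscan4f, which encode zinc finger proteins of the 2-cell stage linked to telomere maintenance, gave a like order, with sums of 2.08 and 1.27 CPM in WT, 18.4 and 17.1 in KO1, 90.5 and 68.7 in KO2, 0.736 and 0.435 in CTR, 376 and 369 in sh1 and 137 and 142 in sh2.

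Zscan4d was at 0.502 and 0.0671 CPM in WT, 2.50 and 2.40 in KO1, 16.5 and 14.2 in KO2, 0.0669 and 0.145 in CTR, 76.8 and 69.7 in sh1 and 24.9 and 25.6 in sh2. All treated libraries were above both controls. The knockout effect was 4.42 ± 0.41 (adjusted p = 0.000102), with 6.34 without WT replicate 1 and 3.57 without WT replicate 2. Only 3 control counts stood behind the knockdown, where treated libraries were 483-fold higher with a 95% exact binomial interval of 165 to 2344 that covers counting error only. Zscan4f, the copy with the most counts, rose by 4.81 ± 0.30 in the knockout (adjusted p = 1.39e-05) and by 8.25 ± 0.17 in the knockdown (adjusted p = 1.38e-23). The rise was smaller in the knockout by −3.44 ± 0.67 (adjusted p = 0.00288, and 0.0656 without WT replicate 2). Zscan4b (difference −4.85 ± 1.03, adjusted p = 0.00507) and Zscan4d (−4.15 ± 0.90, adjusted p = 0.00589) also rose less in the knockout, but without WT replicate 1 these were −2.62 and −2.23 (adjusted p = 0.440 and 0.508). These near-identical copies share reads, so the split of counts between them is uncertain.

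Dux itself, the transcription factor that switches on MERVL and the Zscan4 cluster, had few counts. It had 1 count in WT and 37 in the knockout libraries, a ratio of 18.4 (95% interval 3.10 to 745), and the call (adjusted p = 0.0379) was lost without either WT replicate or KO1 replicate 2 (adjusted p up to 0.288). In the knockdown it had 0 counts in CTR and 143 in the hairpin libraries, so it was at least 24.8-fold higher against a floor of 3 counts over the group. Dux is multicopy, and its counts are uncertain for that reason too. Zfp352, a zinc finger gene of the 2-cell stage, had 0 counts in either control and was at least 7.12-fold higher in the knockout and at least 24.4-fold higher in the knockdown. Its knockout call (adjusted p = 0.0105) was lost without either WT replicate (adjusted p up to 0.0754).

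Further members had no or almost no control counts. Usp17lc, of a deubiquitinase family, was at 0 in every control library and was at least 17.6-fold higher in the knockout and at least 83.0-fold higher in the knockdown. BB287469, an Eif1a-like gene, was at least 23.7-fold higher in the knockout and 343-fold higher in the knockdown (interval 61.3 to 13568, 1 control count). The remaining genes of the named set are unnamed gene models. Gm4027 was at least 12.9-fold higher in the knockout and 176-fold higher in the knockdown (interval 31.4 to 6979, 1 control count). Gm8300 was 96.6-fold higher in the knockout (interval 26.6 to 801, 2 control counts), and Gm20767 55.6-fold higher there (interval 15.2 to 462, 2 control counts) and at least 221-fold higher in the knockdown. Gm8994 rose by 5.62 ± 0.37 in the knockout (6.48 without WT replicate 2), Gm2016 by 5.31 ± 0.49 (4.37 and 9.94 without WT replicate 1 and 2) and Gm21312 by 4.87 ± 0.55 (9.28 and 3.85). The counts of Gm21312 equal those of Gm6763 in every library, so the pair stands for 1 measurement. Tcstv1 and Tcstv3, 2-cell genes with 14 and 18 counts in the knockout libraries and 0 in WT, were not tested there. In the knockdown, with 0 counts in CTR, they were at least 9.53-fold and at least 21.7-fold higher.

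The 5 tested genes that did not rise in both were of other kinds. Cml2, an N-acetyltransferase gene, was at 0.34 in the knockout and rose by 2.01 in the knockdown, and Zfp750, a zinc finger gene of epidermal cells, was at −0.31 and rose by 0.77. Eif1a, Eif4e3, a cap-binding translation factor gene, and Fgf1, a growth factor gene, passed in neither. Effects were larger in the knockdown for 34 of the 36 tested genes, with medians of 4.32 in the knockout and 7.85 in the knockdown. These are fitted values whose size is loose, since 5 of the 36 had no counts in WT and 7 none in CTR. Fewer than 10 counts were found for 25 in WT and 30 in CTR. Medians over all genes tested were 0.01 and −0.003. The difference itself was called for 12 of the 31, all of them lower in the knockout.

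MERVL elements rose in both experiments as well. MERVL-int, the internal part of the retrovirus, was at 148 and 156 CPM in WT, 188 and 201 in KO1, 283 and 333 in KO2, 108 and 110 in CTR, 1119.9 and 1149.6 in sh1 and 529 and 592 in sh2. Its rise was 0.69 ± 0.09 in the knockout and 2.87 ± 0.05 in the knockdown, and the difference of −2.17 ± 0.11 passed (adjusted p = 1.2e-08). MT2_Mm, its promoter repeat, rose by 0.41 ± 0.09 and 2.40 ± 0.08, with a difference of −1.98 ± 0.15 (adjusted p = 6.04e-07). KO1 alone did not pass for MT2_Mm (0.11, adjusted p = 0.458). The knockout call of MT2_Mm was lost without either WT replicate or KO1 replicate 2 (adjusted p up to 0.1).

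The lines and hairpins took a different order outside the 2-cell list. All 31 shared 2-cell genes had the larger effect in KO2 and the larger effect with sh1. Of the 597 other genes higher in both, 73.5% had the larger effect in KO1 and 75.2% with sh1, and of the 719 lower in both 72.0% had it in KO1 and 85.0% with sh1. The lines were then tested against each other, a test added after these values were seen, in which KO2 exceeded KO1 for 1465 of 14189 genes (10.3%) and lay below it for 1937 (13.7%). Of the 31 shared 2-cell genes 25 were called higher in KO2 and none in KO1, and of the 597 shared higher genes 49 were called higher in KO2 and 228 lower. Of the 719 shared lower genes 230 were higher in KO2, that is less reduced, and 56 lower. Without KO1 replicate 1 these counts were 10 and 0 for the 2-cell genes, 17 and 108 for the higher and 79 and 18 for the lower genes, and without KO1 replicate 2 they were 11 and 0, 17 and 115, and 86 and 16. Between the hairpins, where 2670 of 14017 genes were called higher in sh1 than in sh2 (19%) and 2516 lower (17.9%), 30 of the 31 were higher in sh1, as were 304 of the 597, while 421 of the 719 were lower in sh1.

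Among genes called the same way in both outside the 2-cell list the knockout effect was usually the larger. This held for 76.9% of the 597 shared higher genes, with medians of 0.92 in the knockout and 0.64 in the knockdown, and for 82.2% of the 719 shared lower genes, with medians of −0.57 and −0.34. The calls chose these genes, and the spread was wider in the knockout (biological coefficient of variation 0.102, against 0.0392 in the knockdown). A call there took a larger effect, so the shares and medians describe these genes only and do not compare the experiments. The difference of effects was called for 118 of the 597 and 176 of the 719, against 8.88% of 14691 genes called higher and 7.56% called lower in the difference. Of the genes called in the knockout alone, 485 of 948 higher and 368 of 709 lower ones were called in the difference, and of those called in the knockdown alone 339 of 1444 and 411 of 1671. For the others an effect in 1 experiment alone is not shown.

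Among genes outside the 2-cell list, those higher in both with the most change ranged over metabolism, imprinting, secreted factors and surface proteins. Aass (chromosome 6, 23072173 to 23132986), which encodes the bifunctional enzyme that opens lysine breakdown, was at 0.788 and 0.470 CPM in WT, 9.53 and 10.1 in KO1, 15.6 and 14.5 in KO2, 5.48 and 5.87 in CTR, 60.4 and 65.9 in sh1 and 15.0 and 14.9 in sh2. It rose in every line and hairpin without overlap, by 4.26 ± 0.24 in the knockout (adjusted p = 8.57e-06) and 2.44 ± 0.11 in the knockdown (adjusted p = 7.35e-16). The difference of 1.83 ± 0.27 passed (adjusted p = 0.000376). Galnt6 on chromosome 15, a transferase that starts mucin-type O-glycans, rose by 2.95 ± 0.17 and 1.83 ± 0.19.

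Imprinted genes were among them. H19, a maternally expressed non-coding RNA, was at 0.645 and 1.34 CPM in WT, 14.6 and 10.8 in KO1, 4.56 and 3.97 in KO2, 0.134 and 0.290 in CTR, 0.489 and 1.09 in sh1 and 0.977 and 2.00 in sh2. The groups did not overlap, and the rises were 2.86 ± 0.30 in the knockout (3.48 without WT replicate 2) and 2.33 ± 0.62 in the knockdown (2.93 without CTR replicate 2), the latter lost without CTR replicate 1 (adjusted p = 0.0874). Nnat, a paternally expressed membrane protein gene, rose by 2.21 ± 0.34 and 1.91 ± 0.46, and Sfmbt2, a paternally expressed Polycomb-like gene of the extraembryonic lineage, by 3.19 ± 0.14 and 0.82 ± 0.07. Of 40 tested imprinted genes, 8 were higher in both, none lower in both and 2 lower in knockout and higher in knockdown, with medians of 0.33 and 0.30. The matching shares of all genes tested in both were 4.63%, 5.3% and 0.965%.

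Several signalling and surface genes rose from low levels. Wnt8a, a Wnt ligand of the gastrulating embryo, was at 0.0717 and 0 CPM in WT, 1.21 and 1.37 in KO1, 0.0760 and 0.584 in KO2, 1.07 and 1.59 in CTR, 15.99 and 14.5 in sh1 and 2.85 and 4.01 in sh2. KO2 replicate 1 lay next to WT. With 1 count in WT the knockout ratio was 23.4 (95% interval 3.99 to 942), and its call (adjusted p = 0.0248) was lost without either WT replicate, either KO1 replicate or KO2 replicate 2 (adjusted p up to 0.176), while the knockdown effect was 2.44 ± 0.23. Trim67, another tripartite motif gene, best known in the nervous system, was 23.0-fold higher in the knockout (interval 7.72 to 113, 3 control counts) and rose by 2.82 ± 0.30 in the knockdown. Its fitted knockout effect was 3.20 and 7.80 without WT replicate 1 and 2. Smtnl1, a smoothelin-like gene of muscle, rose by 2.66 ± 0.32 and 2.60 ± 0.34.

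Col26a1, a collagen gene, rose by 2.67 ± 0.20 and 2.34 ± 0.44, the latter 1.71 without CTR replicate 1 and 3.36 without CTR replicate 2. Clca4a, a chloride channel accessory gene, rose by 3.28 ± 0.67 and 1.80 ± 0.24. Its knockout effect was 7.39 without WT replicate 1 and 2.27 without WT replicate 2, where the call was lost (adjusted p = 0.0508). Uba1y, a ubiquitin-activating enzyme gene on chromosome Y, was at 2.58 and 1.14 CPM in WT, 12.5 and 10.7 in KO1, 26.6 and 27.0 in KO2, 0.468 and 0.145 in CTR, 13.5 and 16.6 in sh1 and 4.21 and 6.93 in sh2. Other Y genes were near 0 in CTR as well, which cannot be told apart from a rise of Uba1y in the knockdown. In the knockout Uba1y rose by 3.25 ± 0.25 (3.93 without WT replicate 1). On the same chromosome Ddx3y (0.67, adjusted p = 0.00102) and Eif2s3y (0.39, adjusted p = 0.0173) rose by less. Zfy1, with 4 and 0 counts in WT, rose by 4.33 (adjusted p = 0.00344), and Uty did not pass (0.25 ± 0.12, adjusted p = 0.173).

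Markers of the formative state, the stage between naive and primed epiblast, rose in part. Dnmt3l, the cofactor of the de novo DNA methyltransferases, was at 224 and 242 CPM in WT, 561 and 579 in KO1, 471 and 538 in KO2, 271 and 269 in CTR, 513 and 458 in sh1 and 496 and 489 in sh2. All lines and hairpins were raised to a like extent, by 1.202 ± 0.09 and 0.86 ± 0.04. Their difference of 0.35 ± 0.10 (adjusted p = 0.0245) was lost without WT replicate 1, KO1 replicate 2, either CTR replicate, sh1 replicate 2 or sh2 replicate 2 (adjusted p up to 0.113). Dnmt3b, a de novo methyltransferase, rose by 1.27 ± 0.09 and 0.30 ± 0.04, the latter with sh1 (0.54) and not with sh2 (0.06, adjusted p = 0.357), and the difference of 0.98 ± 0.09 passed (adjusted p = 5.13e-06). Pim2, a survival kinase, rose by 1.62 ± 0.15 and 1.70 ± 0.05. Of 31 tested formative and primed genes 5 were higher in both, 3 lower in both and 3 higher in knockout and lower in knockdown. Over all genes tested in both these shares were 4.63%, 5.3% and 1.53%.

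Nodal, activin and BMP genes moved both ways, with 8 of 32 higher in both and 8 lower in both. Another 2 were higher in knockout and lower in knockdown, and 1 was the reverse. All genes tested in both gave 4.63%, 5.3%, 1.53% and 0.965%. Foxh1 on chromosome 15, the DNA-binding partner of SMADs in Nodal signalling, rose by 1.199 ± 0.14 and 0.63 ± 0.07. Id3, a BMP target that inhibits helix-loop-helix factors, rose by 0.68 ± 0.15 and 0.96 ± 0.08, the former lost without either WT replicate (adjusted p up to 0.108). Crabp2, which carries retinoic acid to its receptors, rose by 1.25 ± 0.19 and 1.06 ± 0.18.

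Stress-response genes were counted against 4.63% of all genes higher in both, 5.3% lower in both, 13.2% higher in the knockout and 16.8% higher in the knockdown. Of all genes 1.53% were higher in knockout and lower in knockdown, and 0.965% the reverse. These shares also hold for the lists that follow. Of 44 genes of the integrated stress response, which is set off by amino acid shortage or misfolded protein through ATF4, 13 were higher in both and 1 lower in both. Another 1 was higher in knockout and lower in knockdown and 1 the reverse. In all 17 were higher in the knockout and 30 in the knockdown. Ddit4, an inhibitor of mTORC1, rose by 1.59 ± 0.13 and 0.63 ± 0.05, the latter with sh1 (1.18) and not with sh2 (0.07, adjusted p = 0.339), and Chac1, which degrades glutathione, by 0.79 ± 0.13 and 0.67 ± 0.07. Of 34 p53 targets 6 were higher in both (4 in DESeq2), none lower in both and 3 lower in knockout and higher in knockdown, while 24 were higher in the knockdown and 9 in the knockout. Genes of glycolysis and hypoxia were called higher in both for 9 of 42, lower in both for 1 and higher in knockout but lower in knockdown for 5. Solute carriers were higher in both for 27 of 241, lower in both for 7, higher in knockout and lower in knockdown for 4 and the reverse for 1.

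Genes of the trophectoderm, the first extraembryonic lineage, were higher in both for 7 of 26 (4 in DESeq2) and lower in both for 1. A further 3 (2 in DESeq2) were higher in knockout and lower in knockdown, 1 of them outside chromosomes 1, 15, 19 and Y. Genes of matrix, fibroblasts and mesenchyme were higher in both for 7 of 27 (4 in DESeq2), lower in both for 2 and called opposite ways for 3. Vim, the intermediate filament of mesenchymal cells, rose by 1.06 ± 0.11 and 0.86 ± 0.05. Fibroblast markers summed to 36.4 to 37.1 CPM in KO1 and 29.4 to 32.1 in KO2 against 37.6 to 39.2 in WT, and to 46.3 to 53.3 in sh1 and 17.6 to 17.9 in sh2 against 16.7 to 18.8 in CTR, so that the sum was raised in sh1 only. Members moved apart within these sums. Col1a1, the main fibroblast collagen, and Col1a2 rose in the knockout (2.50 and 2.94, adjusted p = 0.000279 and 0.0281). Thy1, the most abundant of the list in WT, fell there (−0.53, adjusted p = 0.0069) and Pdgfrb did not pass (−0.10). In the knockdown Thy1 rose (1.03, adjusted p = 1.6e-06), from 5.22 and 5.65 CPM in CTR to 12.02 and 11.33 in sh2. Col1a1 and Col1a2 were lower in sh2 than in CTR, Col1a1 at 2.48 and 2.31 CPM against 6.55 and 4.49. The like sums of sh2 and CTR thus do not mean that the markers were unchanged. The part of fibroblast markers in the knockdown counts was not tested. Of 38 genes of the actin cytoskeleton 7 were higher in both, 1 lower in both, 2 higher in knockout and lower in knockdown and 1 the reverse. Hormad1, a meiotic chromosome axis gene silenced by DNA methylation, rose by 1.22 ± 0.22 (0.66 in KO1 alone, which did not pass) and 0.91 ± 0.17, and Zp3, a gene of the egg coat, by 1.60 ± 0.17 and 1.51 ± 0.17.

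**Figure D3:**
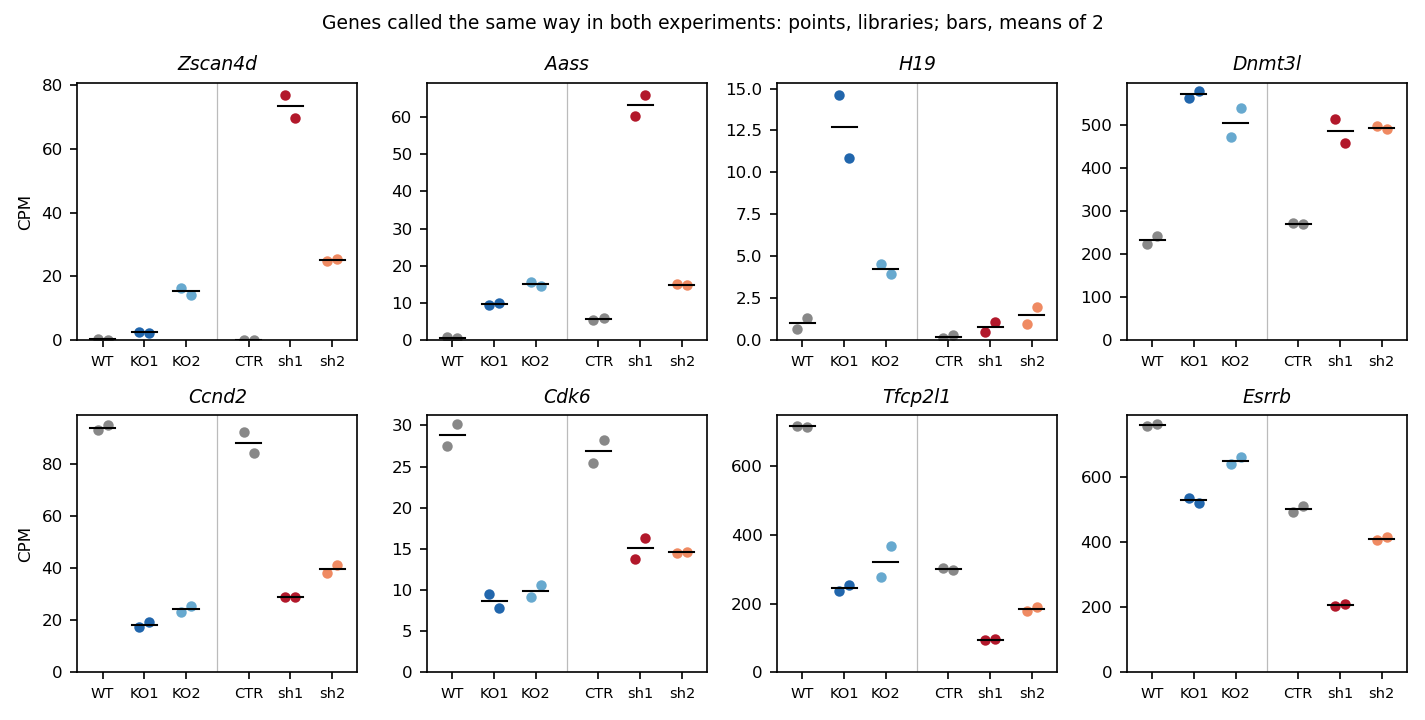
CPM of 8 genes called the same way in both experiments, 1 point per library and a bar at the mean of 2, with the knockout experiment left of the line and the knockdown experiment right of it. Zscan4d, Aass, H19 and Dnmt3l were higher and Ccnd2, Cdk6, Tfcp2l1 and Esrrb lower in every treated library than in both of its controls.

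Genes lower in both included the cyclin gene Ccnd2, the ligand gene Fgf18 and the naive factor Tfcp2l1. Of these 719 genes, 290 lie on chromosome 1 (40.3%, against 5.37% of genes tested), where the median effect was below 0 in both experiments, and a fall of a chromosome 1 gene cannot be told apart from that of its chromosome. Groups below are therefore given with the number of their members on chromosome 1.

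Ccnd2 (chromosome 6, 127125162 to 127152188), a D-type cyclin that drives entry into S phase, was at 93.1 and 94.9 CPM in WT, 17.4 and 19.2 in KO1, 23.2 and 25.6 in KO2, 92.2 and 84.4 in CTR, 28.8 and 29.02 in sh1 and 38.0 and 41.5 in sh2. The controls of both experiments were at a like level and every treated library lay below them. Its fall was −2.15 ± 0.09 in the knockout (adjusted p = 2.68e-06) and −1.38 ± 0.06 in the knockdown (adjusted p = 3.77e-16), larger in the knockout by −0.76 ± 0.11 (adjusted p = 0.000294). Cdk6, a kinase that pairs with D cyclins, was at 27.5 and 30.1 CPM in WT, 9.53 and 7.88 in KO1, 9.20 and 10.6 in KO2, 25.5 and 28.3 in CTR, 13.8 and 16.4 in sh1 and 14.5 and 14.6 in sh2. It too was down in every treated library, by −1.63 ± 0.13 and −0.86 ± 0.09. Of 24 G1 cyclins and CDK inhibitors 6 were lower in both, none of them on chromosome 1, and none was higher in both. The medians of this list were −0.03 and −0.09, close to those of all genes.

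Naive pluripotency genes moved in all directions, with 9 of 43 higher in both and 10 lower in both (4 on chromosome 1). A further 8 were higher in knockout and lower in knockdown (6 in DESeq2) and 1 was the reverse. The shares of all genes were 1.53% and 0.965%. In the knockdown 25 of the 43 were called lower, against 18.6% of all genes. In the knockout 18 were higher and 11 lower, against 13.2% and 11.2%. Tfcp2l1 (chromosome 1, 118627923 to 118685168), a transcription factor that sustains the naive state, was at 716 and 715 CPM in WT, 235 and 253 in KO1, 276 and 367 in KO2, 302 and 299 in CTR, 93.5 and 96.4 in sh1 and 179 and 190 in sh2. The CTR level was below that of WT and every treated library was below its own controls. The falls of −1.35 ± 0.11 and −1.18 ± 0.04 differed by −0.16 ± 0.12, which did not pass (adjusted p = 0.419), and the chromosome 1 medians were −0.55 and −0.26. Prdm14, a naive factor also on chromosome 1, fell by −0.59 ± 0.10 and −1.09 ± 0.10.

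Esrrb on chromosome 12, an orphan nuclear receptor of the naive network that DAX1 is known to bind, was at 760 and 764 CPM in WT, 538 and 521 in KO1, 642 and 662 in KO2, 494 and 513 in CTR, 204 and 212 in sh1 and 406 and 416 in sh2. Its fall of −0.79 ± 0.04 in the knockdown was larger than that of −0.37 ± 0.07 in the knockout (difference 0.42 ± 0.08, adjusted p = 0.00196), and the knockout call was lost without either WT replicate (adjusted p up to 0.0596). KO1 and sh1 showed the lower levels, and KO2 alone did not pass (−0.22, adjusted p = 0.125). Mras, a small GTPase, fell by −1.30 ± 0.10 and −1.04 ± 0.07. Of 33 tested nuclear receptors and partners of DAX1, 6 were lower in both (2 on chromosome 1) and 3 higher in both.

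Developmental regulators with low or moderate levels fell as well. Skor1, a SMAD and homeodomain corepressor of neurons, was at 2.87 and 2.48 CPM in WT, between 0.380 and 0.993 in the knockout libraries, at 27.2 and 29.4 in CTR and between 2.24 and 7.59 in the hairpin libraries. Its fall of −2.86 ± 0.15 in the knockdown was the steepest among the named genes lower in both, and that in the knockout was −2.14 ± 0.36. Fgf18, an FGF ligand, fell by −1.51 ± 0.21 and −1.58 ± 0.17. Sox21, a SOX repressor of neural progenitors and early blastomeres, fell by −1.33 ± 0.26 and −1.45 ± 0.14, and Col13a1, a transmembrane collagen gene, by −1.33 ± 0.26 and −1.45 ± 0.27. The knockout calls of Sox21 and Col13a1 were lost without WT replicate 2 (adjusted p = 0.104 and 0.0869). Skida1, a DACH-domain gene, fell by −2.04 ± 0.37 and −1.37 ± 0.24, the former lost without WT replicate 1 (adjusted p = 0.0646).

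Tead4, a transcription factor of the trophectoderm, fell by −0.92 ± 0.13 and −1.17 ± 0.12. Zfp827, a zinc finger gene, fell by −0.66 ± 0.13 and −1.13 ± 0.14, with the knockout call lost without WT replicate 2 (adjusted p = 0.052). Others of the strongest falls lie on chromosome 1. Inhbb, a subunit of activin, fell by −1.39 ± 0.09 and −1.67 ± 0.06, Eya1, a developmental phosphatase and transcriptional cofactor, by −1.80 ± 0.25 and −1.29 ± 0.18, and Gli2, a mediator of Hedgehog signalling, by −1.18 ± 0.07 and −1.39 ± 0.06. These exceeded the chromosome 1 medians of −0.55 and −0.26.

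Several falls in both rested on 1 line or hairpin. KO2 alone did not pass for Skida1 (−0.86), Col13a1 (−1.02), Zfp827 (−0.21) and Prdm14 (−0.16), nor KO1 alone for Tead4 (−0.44). With sh2 alone Skida1 (−0.20), Col13a1 (−0.65) and Mras (−0.17) did not pass. The same held among named genes and elements higher in both. Those for which KO2 alone did not pass included Wnt8a, Clca4a and ETnERV3-int. Those for which KO1 alone did not pass included Dux, Hormad1 and MT2_Mm. Dnmt3b and Ddit4 were among those that did not pass with sh2 alone.

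Counts of housekeeping lists were partly those of chromosome 1, and stand against 5.3% of all genes lower in both and 18.6% lower in the knockdown. Of 45 ribosome biogenesis genes 9 were lower in both, 7 of them on chromosome 1, and 1 remained outside chromosomes 1, 15, 19 and Y. Of 82 genes of oxidative phosphorylation 7 were lower in both (5 on chromosome 1), and of 73 RNA splicing genes 7 (2 on chromosome 1). Of 42 DNA replication genes 7 were lower in both (3 on chromosome 1) and none higher, while 26 were lower in the knockdown, those 7 included. Mcm6 on chromosome 1, a subunit of the replicative helicase, fell by −0.72 ± 0.07 and −0.57 ± 0.04. Of 398 zinc finger genes 20 were lower in both (4 on chromosome 1), a share near that of all genes, and 3 higher in both. Of 40 genes known to regulate the 2-cell-like state 6 were lower in both, 4 of them on chromosome 1, and 1 was higher in both.

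**Figure D4:**
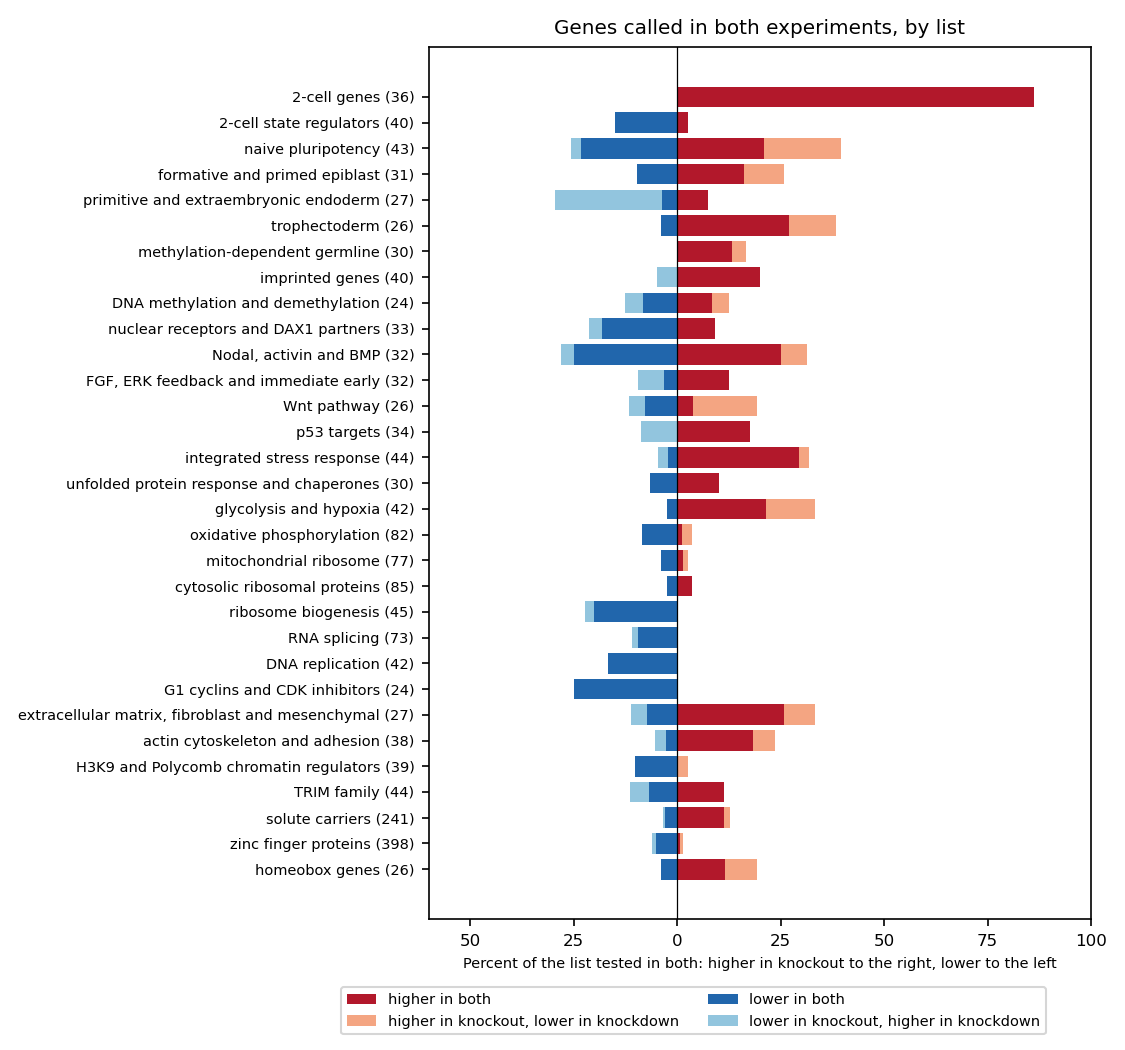
Share of each list, in percent of its genes tested in both experiments (number in brackets), that was higher in both, lower in both or called opposite ways, with genes higher in the knockout to the right and lower to the left. The 2-cell list was higher in both for 31 of 36, the primitive endoderm list held the most genes lower in knockout and higher in knockdown, 7 of 27, and 7 of the 9 ribosome biogenesis genes lower in both lie on chromosome 1.

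Opposite movements were fewer. The 208 genes higher in knockout and lower in knockdown had medians of 0.63 and −0.39, and the 131 of the reverse kind −0.58 and 0.40. All 339 were also called in the difference of effects. Effects called with opposite signs add up in that difference, so this follows largely from the choice of genes and is no separate support. In DESeq2 the opposite-way genes numbered 133 and 74, and without WT replicate 1 and 2 they were 94 and 89 of the former and 39 and 54 of the latter. The fits without KO1 replicate 1 and 2 gave 127 and 125 of the former and 74 and 73 of the latter. Those without CTR replicate 1 and 2 gave 83 and 79 of the latter, and that without KO2 replicate 2 gave 251.

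Genes higher in knockout and lower in knockdown included Dppa3 and Aurkc, genes of germ cells. Of 43 tested naive pluripotency genes, Dppa3 among them, 8 were of this kind, 5 of them outside chromosomes 1, 15, 19 and Y. Of 30 tested germline genes that DNA methylation silences 1 was of this kind and 4 were higher in both. The shares of all genes were 1.53% and 4.63%. Of 6 tested oocyte and maternal genes 1 was of this kind, 1 higher in both and 1 lower in both. Dppa3 (chromosome 6, 122626424 to 122630271), a maternal and germ cell gene that guards against loss of DNA methylation, was at 0.645 and 0.403 CPM in WT, 18.3 and 15.4 in KO1, 2.51 and 1.81 in KO2, 10.4 and 8.69 in CTR, 7.26 and 7.41 in sh1 and 5.03 and 4.85 in sh2. It rose mostly in KO1, and CTR lay well above WT. With sh2 alone it fell (−0.95, adjusted p = 0.00015), and with sh1 alone it did not pass (−0.39, adjusted p = 0.0524). The effects were 3.51 ± 0.31 and −0.67 ± 0.14, with a difference of 4.18 ± 0.33 (adjusted p = 1.04e-06).

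Aurkc, the Aurora kinase of meiosis, was at 4.802 and 6.37 CPM in WT, 15.6 and 19.12 in KO1, 15.9 and 15.8 in KO2, 5.62 and 7.25 in CTR, 1.54 and 2.18 in sh1 and 2.85 and 2.77 in sh2. Both controls were alike, both lines rose and both hairpins fell, by 1.56 ± 0.17 and −1.48 ± 0.20 (difference 3.05 ± 0.26, adjusted p = 2.5e-06). Grin1 (chromosome 2, 25291177 to 25319187), which encodes a subunit of the NMDA receptor, was at 9.10 and 9.53 CPM in WT, 36.2 and 38.7 in KO1, 22.6 and 23.8 in KO2, 7.09 and 5.72 in CTR, 1.95 and 2.18 in sh1 and 2.70 and 2.00 in sh2. It rose by 1.66 ± 0.12 and fell by −1.54 ± 0.20. Grin1os overlaps it on the opposite strand (25291258 to 25298660) and gave 1.94 ± 0.21 and −1.60 ± 0.32. Strand use in the counting is not given in the sources used here, so reads of the pair cannot be told apart.

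Pax6, a homeobox gene of eye and neural progenitors, rose by 1.58 ± 0.31 and fell by −1.33 ± 0.11, with the rise lost without WT replicate 1 (adjusted p = 0.0733). Tfap2c, a factor of trophectoderm and germ cells, was at 1.095 ± 0.10 and −0.62 ± 0.09, and Kdm4b, an H3K9 demethylase, at 0.63 ± 0.09 and −0.32 ± 0.07. Ripply1, a repressor of somite formation on chromosome X, was at 1.38 ± 0.26 and −1.05 ± 0.14, the former lost without WT replicate 2 (adjusted p = 0.0508). Lrrc31, a leucine-rich repeat gene, was at 1.11 ± 0.19 and −1.04 ± 0.39, the latter lost without either CTR replicate, sh1 replicate 2 or either sh2 replicate (adjusted p up to 0.279). Edn2, an endothelin gene, was at 2.07 ± 0.56 and −0.98 ± 0.19, the former lost without either WT or either KO1 replicate (adjusted p up to 0.198). Dpys, an enzyme of pyrimidine breakdown (1.24 ± 0.18 and −1.03 ± 0.13), and A4galt, a glycosphingolipid synthase (1.15 ± 0.17 and −0.99 ± 0.14), lie on chromosome 15. On that chromosome 25 of 402 genes that averaged 8 CPM or more were higher in knockout and lower in knockdown, and the KO1 median was 0.27. Chromosome 19 held 23 of 321 such genes, with a knockdown median of −0.28. Of all genes tested in both, at any level, 1.53% were of this class.

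Genes lower in knockout and higher in knockdown included genes of the primitive endoderm, the lineage that forms the yolk sac. Of 27 listed genes tested in both, 14 fell and 4 rose in the knockout, 12 rose and 1 fell in the knockdown, 7 were lower in knockout and higher in knockdown, 2 were higher in both and 1 was lower in both. The medians were −0.74 and 0.34, and 15 members were called lower in the difference against 7.56% of all genes. In DESeq2 the 7 were 5, and of all genes tested in both 0.965% were of this kind. Grb10 (chromosome 11, 11930499 to 12037428), an imprinted growth inhibitor that this list holds, was at 299.5 and 253 CPM in WT, 27.8 and 26.7 in KO1, 177 and 160 in KO2, 217 and 221 in CTR, 391 and 411 in sh1 and 293 and 307 in sh2. The fall was deepest in KO1 and the rise largest in sh1. The effects of −2.03 ± 0.09 and 0.66 ± 0.04 differed by −2.68 ± 0.11 (adjusted p = 1.16e-09).

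Pdgfra, a growth factor receptor that marks primitive endoderm, was at 4.66 and 3.96 CPM in WT, 1.29 and 0.823 in KO1, 3.57 and 3.74 in KO2, 0.535 and 0.580 in CTR, 0.768 and 1.56 in sh1 and 2.63 and 2.70 in sh2. Here sh2 was the higher hairpin, and KO2 lay just below WT. The effects were −1.13 ± 0.24, lost without WT replicate 1 (adjusted p = 0.0927), and 1.65 ± 0.42. Col4a1, a basement membrane collagen gene, was at −0.84 ± 0.10 and 0.48 ± 0.06. Of 15 tested genes of the retinoic acid response 2 were of this kind, 2 higher in both and 1 lower in both. The 2 were Rxra, the common partner of nuclear receptors, at −0.78 ± 0.11 and 0.72 ± 0.10, and Crabp1, a retinoic acid binding protein gene, at −0.89 ± 0.12 and 0.70 ± 0.13.

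Other genes of this class were surface and signalling proteins. Gfra1 on chromosome 19, a receptor of GDNF, was at −1.13 ± 0.30 and 1.66 ± 0.28, the former lost without either WT replicate or KO1 replicate 1 (adjusted p up to 0.217). Wnt6, a Wnt ligand on chromosome 1, was at −1.097 ± 0.21 and 1.49 ± 0.22, the former lost without WT replicate 1 (adjusted p = 0.066), and rose against the low median of its chromosome in the knockdown. She, an adaptor protein gene, was at −1.06 ± 0.15 and 1.32 ± 0.20. Atf3, a stress-induced transcription factor also on chromosome 1, was at −0.93 ± 0.28 and 1.06 ± 0.20, the former lost without either WT or either KO1 replicate (adjusted p up to 0.218).

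The remaining named genes of the class were at low levels. Fam174b, a membrane protein gene, was at −1.02 ± 0.29, lost without either WT replicate or KO1 replicate 2 (adjusted p up to 0.165), and 1.08 ± 0.22. Syde1, which encodes a GTPase-activating protein, was at −0.95 ± 0.22, lost without either WT replicate (adjusted p up to 0.0857), and 1.03 ± 0.20. Cap2, which recycles actin, was at −0.93 ± 0.22, lost without either WT replicate or KO1 replicate 2 (adjusted p up to 0.116), and 1.19 ± 0.29, lost without CTR replicate 2 (adjusted p = 0.0535). Mum1l1, on chromosome X, was at −0.84 ± 0.17, lost without WT replicate 1 (adjusted p = 0.093), and 0.97 ± 0.15. Hdgfrp3, of the hepatoma-derived growth factor family, was at −0.98 ± 0.14 and 0.75 ± 0.15.

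Many of these opposite movements were not shown by every line and hairpin. Among genes lower in knockout, KO2 alone did not pass for She (−0.32, against −1.81 in KO1), Pdgfra (−0.23), Gfra1 (−0.36), Wnt6 (−0.55), Fam174b (−0.48), Cap2 (−0.57), Mum1l1 (−0.66), Rxra (−0.44) and Crabp1 (−0.46), nor KO1 alone for Atf3 (−0.57). Among genes higher in knockout, KO2 alone did not pass for Dpys (0.39), A4galt (0.36, against 1.94 in KO1), Pax6 (0.73) and Edn2 (1.47). With sh2 alone Dpys (−0.37), Lrrc31 (−0.43), Syde1 (0.45), Cap2 (0.69), Atf3 (0.54) and Hdgfrp3 (0.33) did not pass, and with sh1 alone Pdgfra (1.06) did not. MER74A passed in neither line alone and not with sh2 alone.

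**Figure D5:**
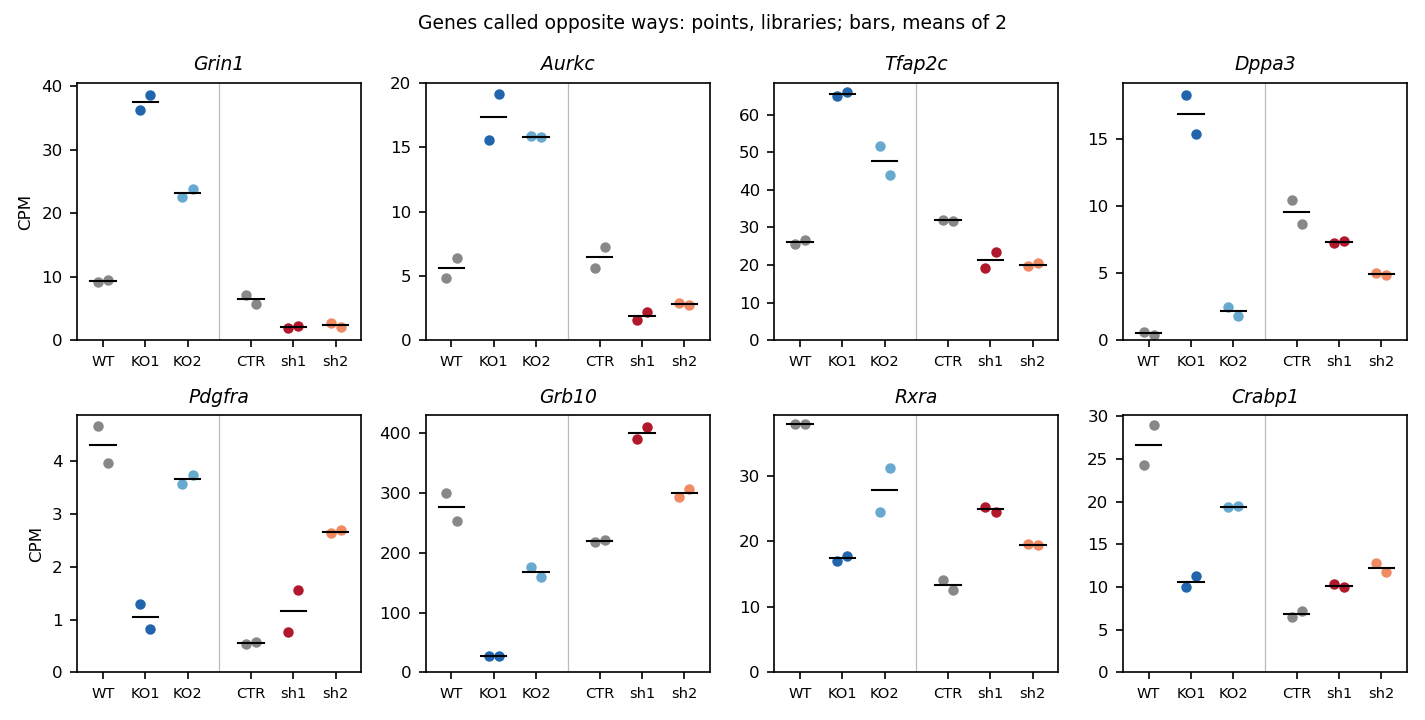
CPM of 8 genes called opposite ways, 1 point per library and a bar at the mean of 2, with the knockout experiment left of the line and the knockdown experiment right of it. Grin1, Aurkc, Tfap2c and Dppa3 were higher in every knockout library and lower in every hairpin library than in both controls, and Pdgfra, Grb10, Rxra and Crabp1 showed the reverse.

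The largest differences of the effects came from genes absent or nearly absent in a control. Acta2 on chromosome 19, smooth muscle actin, had 0 counts in WT and was at 15.97 and 15.6 CPM in KO1 and 1.44 and 1.23 in KO2, at least 79.3-fold higher over the knockout libraries. In the knockdown experiment it was at 31.0 and 32.2 CPM in CTR, 36.6 and 35.8 in sh1 and 5.48 and 5.32 in sh2. The called mean of −1.18 ± 0.09 there averages opposite hairpins, since sh1 alone gave 0.19. Acta1, skeletal actin, and Prss23, a serine protease, likewise rose in the knockout (31.8-fold, interval 5.51 to 1275 over 1 control count, and 18.9-fold, interval 5.05 to 159 over 2), while their knockdown means of −0.57 ± 0.18 and −0.45 ± 0.14 were 0.64 and 0.82 with sh1 alone. The knockout call of Acta1 was lost in 5 of 6 fits that left out a library, all but that without KO2 replicate 2 (adjusted p up to 0.166), its knockdown call without CTR replicate 1 or sh2 replicate 2 (adjusted p up to 0.208) and its difference without WT replicate 2 or KO2 replicate 1 (adjusted p up to 0.137). The knockout call of Prss23 was lost without WT replicate 2 (adjusted p = 0.0542) and its knockdown call without CTR replicate 2 or sh2 replicate 1 (adjusted p up to 0.0988). KO2 alone passed for neither Acta1 (2.02) nor Prss23 (2.87).

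Efhc2, an axonemal gene on chromosome X, was at 0.430 and 0.738 CPM in WT, 11.0 and 12.96 in KO1 and 80.3 and 59.0 in KO2. It rose by 5.59 ± 0.27 in the knockout and by 1.34 ± 0.44 in the knockdown, the latter lost without either CTR replicate, sh1 replicate 1 or sh2 replicate 2 (adjusted p up to 0.149) and not passed with sh1 alone (1.21). Glod5, also on chromosome X, rose by 4.18 ± 0.28 and did not pass in the knockdown (−0.21 ± 0.26, adjusted p = 0.574). Ddx3y and Uty on chromosome Y had differences of −5.28 ± 0.23 and −4.49 ± 0.32 (−3.78 and −5.73 without CTR replicate 1 and 2 for Uty), and the low level of Y genes in CTR cannot be told apart from an effect of the hairpins.

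Repeat elements, mostly the silenced remains of transposons and with satellites among them, were tested in both experiments for 820 families. Of these 24 were higher in both (2.93%), 7 lower in both (0.854%) and 1 was called opposite ways (0.122%), the repeat family MER74A (−0.51 ± 0.15 and 0.45 ± 0.14). In the knockout 39 families rose (4.76%) and 23 fell (2.8%), and in the knockdown 148 rose (18%) and 31 fell (3.78%). Young LINE-1 subfamilies, which still hold mobile copies, were higher in both for 4 of 6. L1Md_A was at 666 and 597 CPM in WT, 872 and 976 in KO1, 1724 and 1692 in KO2, 516 and 517 in CTR, 762 and 799.9 in sh1 and 776 and 886 in sh2. It was raised in every treated library, and KO2 was highest. It rose by 0.99 ± 0.09 and 0.64 ± 0.04, L1Md_T by 0.93 ± 0.09 and 0.71 ± 0.04 and L1Md_Gf by 1.06 ± 0.16 and 0.58 ± 0.10.

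Endogenous retroviruses of the ERVK class were higher in both for 13 of 249 families and lower in both for 2. ERVB4_2-LTR_MM rose by 1.94 ± 0.35 and 2.64 ± 0.25, with the knockout call lost without WT replicate 1 (adjusted p = 0.0589), and RLTR9A2 by 1.11 ± 0.16 and 1.12 ± 0.16. ETnERV3-int, of the early transposons, rose by 0.996 ± 0.18, lost without WT replicate 1 (adjusted p = 0.0579), and 0.76 ± 0.15. None of the 21 tested B1 and B2 SINE families was called in the knockout, and 2 rose in the knockdown.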

How the data were processed

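RNA-seq counts per gene and repeat element were used as deposited by the authors, in 1 table per experiment. Per the submitters' processing notes the tools were Trim Galore, HISAT2 2.1.0, Cufflinks 2.2.1, Bowtie2, MACS2, DiffBind and deepTools with mm10. The counting rule and the use of strand are not given in the sources. The tables hold 24394 genes, 1153 repeat elements and 27 rows whose names were turned into dates. The date rows stayed in library totals (0.146% to 0.201% of counts) and were not tested. No column of the tables was unused.

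Counts were filtered with filterByExpr and tested in edgeR 4.0.16 (R 4.3.3) without covariates, with Benjamini-Hochberg adjustment. DESeq2 1.42.0 was an alternative, and scripts were tested on simulated data. Positions came from RefSeq for 24274 genes (99.5%). With 2 libraries per group precision rests on the spread within groups (biological coefficient of variation 0.102 in the knockout and 0.0392 in the knockdown). Intervals and floors cover counting error only.

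Named genes were the 10 per class (4 per list) called in both experiments with a mean of at least 2 CPM, treated libraries beyond both controls and the largest smaller effect, gene models left out except in the 2-cell class, the 6 largest differences each way and a fixed set. Cml2, Zfp750, Eif4e3, Fgf1, Sall4, Col1a1, Col1a2, Pdgfrb, Eif2s3y, Zfy1 and MER74A fall outside this rule and were named after their values were seen. The tests between lines and between hairpins and the counts without chromosomes 15, 19 and Y were added after values were seen. Members, lists and rules were chosen with earlier results of these data known. ChIP samples and other RNA-seq experiments were not analysed here. The text names part of the genes that meet the rule, and the others are not reported here.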

Additional observations from a re-analysis of the deposited data

Results flagged for a closer look

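The effect differed between the knockout and the knockdown, by the test of the difference itself, for 1305 genes that were higher and 1111 that were lower in the knockout. Lower in the knockout were the 2-cell genes Zscan4c (−4.70), Zscan4b (−4.85), Usp17le (−4.79) and Pramef25 (−4.17) and the elements MERVL-int (−2.17) and MT2_Mm (−1.98), all as log2 differences. The differences of Zscan4b and Usp17le were lost without WT replicate 1 (adjusted p = 0.440 and 0.399), that of Zscan4c in 8 and that of Pramef25 in 7 of 12 fits that left out a library. The Y-linked genes Ddx3y (−5.28) and Uty (−4.49) were lower too, with low counts of Y genes in the CTR libraries. Higher in the knockout were Acta2 (10.19, a fitted value with no counts in WT, so no bound), Glod5 (4.39), Acta1 (4.38), Prss23 (4.27), Efhc2 (4.26) and Dppa3 (4.18).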

How the results depend on the processing

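Of 4171 values of named effects recomputed under other settings, 3974 kept their direction and side of the threshold, 183 fell short of it, 8 newly passed and 6 turned: Acta1 (0.64), Acta2 (0.19), Prss23 (0.82) and Pou5f1 (−0.11) in the knockdown with sh1 alone, and Nanog (0.15) and Zfp42 (0.18) with sh2 alone. Causes were not tested except where fewer genes or libraries enter by construction.

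Counts follow in the order higher in both, lower in both, higher in knockout but lower in knockdown, and the reverse. An adjusted p under 0.01 gave 296, 376, 87 and 42, a log2 change of at least 0.5 gave 384, 151, 66 and 51, a call in each line and hairpin 144, 180, 36 and 10, and KO2 alone 373, 435, 104 and 58. DESeq2 gave 393 higher in both and 133 and 74 opposite, sh2 alone 405 higher and 425 lower in both, and KO1 alone 326 higher in knockout but lower in knockdown. Genes lower in both were 429 without chromosome 1 and 394 without chromosomes 1, 15, 19 and Y, the latter chosen after seeing the data. A mean of at least 2 CPM left 14 shared 2-cell genes, since most have low counts.

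Genes higher and lower in the knockout were 858 and 775 at 0.01, 609 and 500 in each line and 934 and 792 in KO2 alone, and 911 were lower by at least 0.5. In the knockdown 1401 and 1606 were called in a fit of 12 libraries, 953 and 1095 with each hairpin and 1166 and 601 at 0.5, and 1555 (at 0.01) and 1481 (DESeq2) were higher. The difference was higher and lower for 672 and 496 at 0.01, 259 and 169 in each line and hairpin, 2077 and 1728 for KO1 and 854 and 713 for KO2.

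Leaving out 1 library gave ranges of 277 to 770 genes higher in both, 329 to 1086 lower in both, 89 to 299 and 39 to 251 opposite, 22 to 32 shared 2-cell genes, 674 to 2496 and 552 to 2813 higher and lower in the knockout, 1479 to 2138 and 1832 to 2524 in the knockdown, and 790 to 2018 and 548 to 1897 in the difference. With the replicate block 1613 genes moved the same way and 428 opposite ways (79.0%). In the knockout it called 2204 genes higher and 1899 lower. The labels do not say whether replicate numbers pair the samples, and the main fits used no pairing. Deviations of same-numbered libraries correlated at 0.197 (WT and KO1), 0.462 (WT and KO2) and 0.0952 (KO1 and KO2) in the knockout. In the knockdown they correlated at 0.0560, −0.0372 and 0.178. Whether same-numbered libraries share a batch was not tested. Over the settings tried, the same-way share lay between 66.7% (sh2 alone) and 87.6% (each line and hairpin). With 2 libraries per group and few control counts, folds of 2-cell genes are loose, and 2-cell genes with under 10 counts were not detectable at this depth.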

Other observations

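Outside the 2-cell list, 9 genes rose by at least 2 in the knockout and at least 4 in the knockdown on the log2 scale. They were Abcb5, a drug transporter gene, Cacna1s, the calcium channel of skeletal muscle, Trim43a, a tripartite motif gene of the preimplantation embryo, Uba1y, BC147527 and the gene models Gm1995, Gm21319, Gm4858 and Gm7104. They were chosen after their values were seen and get no further test. Trim43a had 0 and 3 counts in WT, 2 and 6 in KO1, 22 and 28 in KO2, 0 and 2 in CTR, 34 and 25 in sh1 and 29 and 20 in sh2. Gm1995 had 5 and 1 counts in WT, 22 and 19 in KO1, 57 and 72 in KO2, 1 and 0 in CTR, 195 and 214 in sh1 and 75 and 69 in sh2, the order of lines and hairpins seen for the 2-cell genes. Cacna1s lies on chromosome 1 and had 3 and 2 counts in WT, 11 and 16 in KO1, 18 and 17 in KO2, 2 and 1 in CTR, 62 and 63 in sh1 and 44 and 31 in sh2.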
